A study of Macaca mulatta with 30 samples.

Results

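The interferon genes described here are those of the type I signal and its response: the receptor genes IFNAR1 and IFNAR2, the transcription factor genes STAT2, IRF9 and IRF3, and the response genes IFIT2, IFIT3, MX1 and ISG15. They were chosen by symbol, with earlier results of these data known. Of the 9 genes listed, 8 have a row in the gene table, which holds 15521 genes, and all 8 were among the 12935 genes with enough reads to test. IFNAR1 is not analysed here.

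Type I interferons are secreted when a cell senses foreign or misplaced nucleic acid, and neurons, astrocytes and microglia can all respond to them. The ligand joins the receptor chains IFNAR1 and IFNAR2, whose kinases phosphorylate STAT2, and STAT2 works with IRF9 in a complex that enters the nucleus and turns on response genes. IRF3 acts earlier, as the factor through which nucleic acid sensors turn on interferon beta, and it can also switch on some response genes such as IFIT2 directly.

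The genes were measured by RNA sequencing of cortical area 32, a medial prefrontal region, in 30 male rhesus macaques (Macaca mulatta), with 1 library per animal. All of them drank 4% (w/v) ethanol by choice for over 12 months, 22 h a day on 7 days a week, so the lowest group is one of low drinkers and no ethanol-naive group was analysed here. Total RNA was depleted of ribosomal RNA before stranded libraries were made, and 1 of 31 animals had been removed by the authors as an outlier. Values are reads that the authors had brought to the same upper quartile in each library, called normalized reads below.

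Very heavy drinkers (VHD, n = 6) averaged over 3 g/kg of ethanol a day and passed 4 g/kg on at least 10% of days. Heavy drinkers (HD, n = 7) reached 3 g/kg on at least 20% of days. Binge drinkers (BD, n = 7) reached 2 g/kg on at least 55% of days and had a blood ethanol of 80 mg/dl or more at least once in each year. Low drinkers (LD, n = 10) met none of these definitions. The animals came from cohort 4 (n = 9), cohort 5 (n = 8), cohort 7a (n = 8) and cohort 7b (n = 5), whose mean ages at the end of drinking were 9.98, 7.15, 5.70 and 7.18 years. VHD animals came from cohorts 5 and 7a and LD animals from cohorts 4, 7a and 7b, so the categories are uneven over the cohorts, and cohort stood in the model of every category comparison. Age enters here only as a cohort mean, so age and cohort cannot be told apart between cohorts of different mean age. Cohorts 5 and 7b had nearly the same mean age.

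The libraries hold 4.39 to 13.99 M reads (M, mega) in their exons, and 6 of them hold under 6 M. The tissue was dissected cortex, and its markers were present: all 6 neuron markers with a row were tested, as were 7 of 7 for astrocytes and 14 of 14 for microglia and macrophages. Their summed levels spanned 57840 to 69580, 77780 to 103400 and 1365 to 2241 normalized reads over the 30 libraries. Of 8 blood cell markers with a row, none passed the filter on low values, and their sum was 3.42 to 37.4. In bulk tissue, fewer cells of a type and less RNA per cell cannot be told apart.

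All the interferon genes with a row were detected in all 30 libraries, but at very different levels. STAT2 was the highest at 273 ± 29.5 normalized reads per kilobase of exon (SD, n = 30), and it exceeded IRF3 in 30 of 30 libraries. IRF3, at 161 ± 29.04 per kilobase, and MX1, at 149.5 ± 29.1, differed by less than their SD. MX1 in turn lay above IRF9 in 30 of 30 libraries. IRF9 (73.8 ± 13.6 per kilobase), IFNAR2 (69.0 ± 10.9) and IFIT3 (63.7 ± 10.7) formed a middle level whose neighbours differed by less than their SD. IFIT2 followed at 41.7 ± 6.05 per kilobase, under IFIT3 in 29 of 30 libraries, and ISG15 was last at 16.3 ± 8.13. Per kilobase, MX1 was thus the highest of the 4 response genes and stood level with IRF3.

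IFNAR2, which encodes the signalling chain that binds interferon most tightly, has 9 exons on chromosome 7 (13379265 to 13413937, in the numbering of the exon names, whose genome build is not given in the sources used here). Over the 30 animals it ran from 123 to 237.5 normalized reads, with a median of 183. In LD animals the lowest, median and highest levels were 135, 183 and 197 normalized reads, and in VHD animals 147, 175 and 237.5. The groups overlapped, with 2 of 6 VHD animals above all 10 LD animals. BD animals ran from 123 to 219 with a median of 151, and HD animals from 161 to 233 with a median of 199. The estimated log2 difference from LD was −0.02 ± 0.14 in VHD, 0.14 ± 0.12 in HD and −0.16 ± 0.11 in BD (limma estimate ± SE). Without VHD replicate 5 the VHD value was −0.20, without HD replicate 3 or LD replicate 8 the HD value was 0.08, and without BD replicate 1 the BD value was −0.09.

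STAT2, the member of the STAT family that is bound to IRF9 and is used mainly by type I and type III interferons, lies on chromosome 12 (54608465 to 54623191) with 23 exons. It varied least of the 8 genes, from 815 to 1370 normalized reads with a coefficient of variation of 10.8%. In LD animals it stood at a lowest, median and highest level of 886.5, 1141 and 1190 normalized reads, and in VHD animals at 815, 1038 and 1197. The groups overlapped, and 1 of 6 VHD animals lay below all LD animals and 1 above. The log2 difference from LD was −0.10 ± 0.08 in VHD, −0.06 ± 0.07 in HD and −0.05 ± 0.06 in BD. The VHD value was −0.16 without VHD replicate 2, −0.06 without LD replicate 2 and −0.04 without VHD replicate 5.

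IRF9, the DNA-binding subunit of the complex, has 9 exons on chromosome 14 (85383622 to 85389281). Its lowest, median and highest levels were 112, 145 and 165 normalized reads in LD and 109, 157 and 209 in VHD. The VHD animals were the wider group, with 1 of 6 below all LD animals and 3 of 6 above them. The log2 difference was −0.00 ± 0.16 in VHD, −0.16 ± 0.14 in HD and −0.04 ± 0.13 in BD. IRF3, present in the cytoplasm until it is phosphorylated, has 8 exons on chromosome 19 (44577237 to 44584161). From lowest through median to highest, its levels were 187, 278 and 292.5 normalized reads in LD and 175, 252 and 323 in VHD, again overlapping. The log2 difference of IRF3 was −0.20 ± 0.17 in VHD, −0.23 ± 0.14 in HD and −0.04 ± 0.13 in BD. By sets of consecutive library numbers, IRF3 was 202 ± 46.4 normalized reads in the first set (SD, n = 8), which holds 4 of the 7 HD animals, and its mean was 265 to 278 in the other 3 sets. With the sets as a term, its difference turned to 0.014 in HD and 0.086 in BD. Without VHD replicate 2 the VHD value was −0.11, and without VHD replicate 5 it was −0.31. It was also the gene that followed depth most closely: its log2 level and the library's reads had r = 0.43 and rho = 0.45 over 30 libraries (permutation p = 0.0181 and 0.0135, adjusted p of r = 0.145 over 8 genes), with r = 0.52 without the 2 libraries farthest from the median depth and 0.46 after centring within cohort. The part of depth in the IRF3 differences was not tested.

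The response genes IFIT2 and IFIT3 encode related proteins that bind viral RNA, and they lie near each other on chromosome 10 (84362502 to 84370141 and 84388094 to 84394938) with 2 exons each. The second exon in genome order held 94.4% of the reads of IFIT2 and 98.2% of those of IFIT3. They are paralogs, and how reads that match both were counted is not given in the sources used here. IFIT2 ran from 103 to 155.5 normalized reads in LD with a median of 142, and from 141 to 185 in VHD with a median of 160.5. Of the 6 VHD animals, 4 lay above all LD animals. IFIT3 ran from 78.8 to 122 in LD with a median of 103, and from 97.8 to 141 in VHD with a median of 128, and again 4 of 6 VHD animals lay above all LD animals. For IFIT3 these were the 4 VHD animals of cohort 5, at 126 to 141, and the 2 of cohort 7a were at 97.8 and 114. HD animals of cohort 5 ran from 101 to 140 for IFIT3 (n = 3). For IFIT2 the VHD animals ran from 141 to 185 in cohort 5 and were at 154 and 156.5 in cohort 7a. How many of all genes separate in this way was not counted. With cohort in the model the log2 difference of VHD from LD was 0.16 ± 0.13 for IFIT2 and 0.15 ± 0.15 for IFIT3. In HD it was −0.10 ± 0.11 for IFIT2 and −0.03 ± 0.13 for IFIT3, and in BD 0.05 ± 0.10 and 0.02 ± 0.12. The VHD value fell to 0.05 for IFIT2 without BD replicate 6, and to 0.09 for IFIT3 without LD replicate 2. Most VHD animals were from cohort 5, which holds no LD animal. In cohort 5, IFIT3 was 126 ± 14.04 normalized reads (SD, n = 8), and the other cohorts lay between 98.2 ± 13.0 (cohort 7a, n = 8) and 109 ± 20.3 (cohort 4, n = 9). The summed endothelial markers were also highest there, with a median of 3653 normalized reads in cohort 5 against 2943 to 3037 in the other 3 cohorts (11 of the 12 markers have a row, and none of the 11 was at 0 in all libraries). Their part in the IFIT3 levels was not tested.

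MX1, a dynamin-like GTPase that blocks viruses in the cytoplasm, has 13 exons on chromosome 7 (5183826 to 5212995). The lowest, median and highest levels were 259.5, 331.5 and 428 normalized reads in LD, 276.5, 365 and 467 in BD, 286, 392 and 494.5 in HD, and 236, 382 and 499.6 in VHD. All 4 categories overlapped, and the lowest and the highest animal of the study were both VHD. The estimates of MX1 were positive in each category. For MX1 the log2 difference from LD was 0.21 ± 0.16 in VHD, 0.25 ± 0.14 in HD and 0.17 ± 0.13 in BD. Leaving out 1 library moved the VHD value to 0.40 (without VHD replicate 5, unadjusted p = 0.0202, adjusted p = 0.941) or to 0.10 (without VHD replicate 2), the HD value to 0.17 (without HD replicate 7) and the BD value to 0.11 (without BD replicate 1). All 3 differences share the LD animals and none passed the test (adjusted p = 0.948, 0.449 and 0.999, limma with Benjamini-Hochberg adjustment over 12935 genes).

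ISG15 encodes a ubiquitin-like protein that is joined to other proteins and is also secreted. It has 2 exons on chromosome 1 (118336 to 119492) and rests on few reads, from 1 to 23 per library, with 17 of 30 libraries at 10 normalized reads or more. Its lowest, median and highest levels were 4.14, 8.55 and 19.9 normalized reads in LD, 2.97, 12.5 and 27.7 in BD, 1.68, 10.8 and 12.8 in HD, and 5.54, 10.6 and 13.2 in VHD. The highest animals were thus a BD and an LD animal, and every category held an animal below 6. The log2 difference of VHD from LD was 0.63 ± 0.45, with a 95% confidence interval from −0.29 to 1.55, the widest of the 8 genes. The difference from LD was 0.21 ± 0.38 in HD and 0.23 ± 0.35 in BD. The HD value turned to −0.07 with no cohort term and to −0.71 in cohort 7a alone. The BD value turned to −0.33 without the libraries under 6 M reads.

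**Figure D1:**
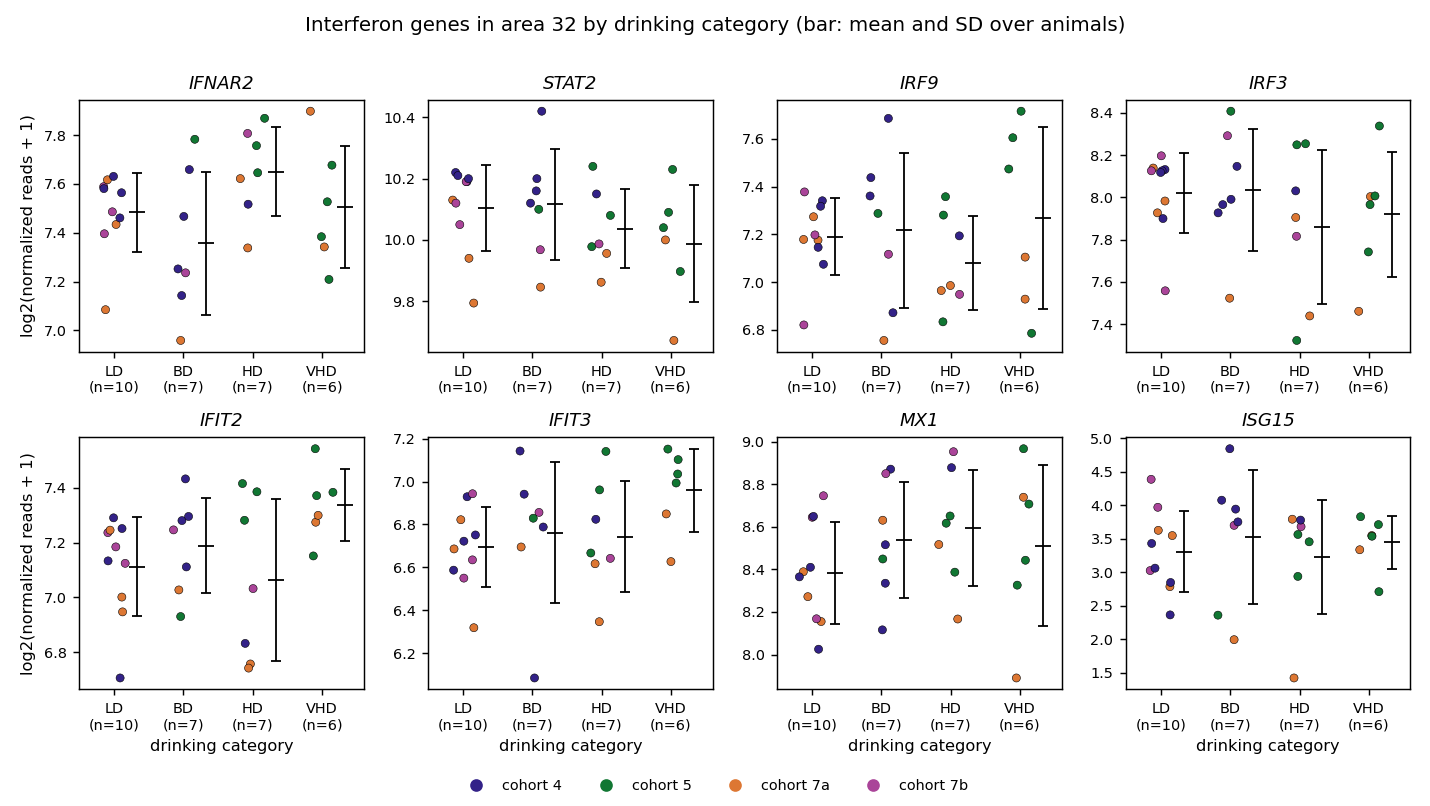
Level of the 8 interferon genes, as log2(normalized reads + 1), in each of 30 animals by drinking category, with points coloured by cohort and bars for mean and SD. The categories overlap for all 8 genes. In IFIT2 and IFIT3 4 of the 6 VHD animals lie above all LD animals. For IFIT3 these are the 4 VHD animals of cohort 5, which holds no LD animal.

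Across drinking categories, none of the interferon genes passed the test. At an adjusted p under 0.05 limma called 0% of the 12935 genes in VHD, HD or BD against LD, over any category and over a trend from LD through BD and HD to VHD, and 0 of the 8 members. At an unadjusted p under 0.05 it called 3.5% of all genes in VHD, 12.5% in HD, 3.05% in BD, 5.62% over any category and 6.18% over the trend, and again 0 of 8 members in each. In VHD 4 of 8 members and 6452 of 12935 genes had a positive estimate, with medians of 0.07 and −0.00 log2 units. In HD the members' median was −0.05 with 3 of 8 positive, and in BD −0.01 with 4 of 8 positive. The adjusted p of the members was 0.948 to 1 in VHD, 0.449 to 0.932 in HD and 0.999 for all 8 in BD.

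The confidence intervals give the range of differences that these data allow. For STAT2 the 95% confidence interval of VHD minus LD ran from −0.26 to 0.06 log2 units, and for IFNAR2 from −0.31 to 0.28. For IFIT2 it ran from −0.11 to 0.43, for IFIT3 from −0.16 to 0.46 and for MX1 from −0.12 to 0.55. Over the trend, MX1 had the largest estimate after ISG15, 0.08 ± 0.05 log2 units per category step, and IRF3 the lowest, −0.08 ± 0.05. Whether the slope over categories differs between cohorts was tested too: 0% of genes passed after adjustment and 2.24% were under 0.05 before it, with 0 of 8 members at either. In cohort 7a alone, which holds both VHD (n = 2) and LD (n = 3) animals, IFNAR2 turned to 0.24 log2 units and in HD ISG15 to −0.71.

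**Figure D2:**
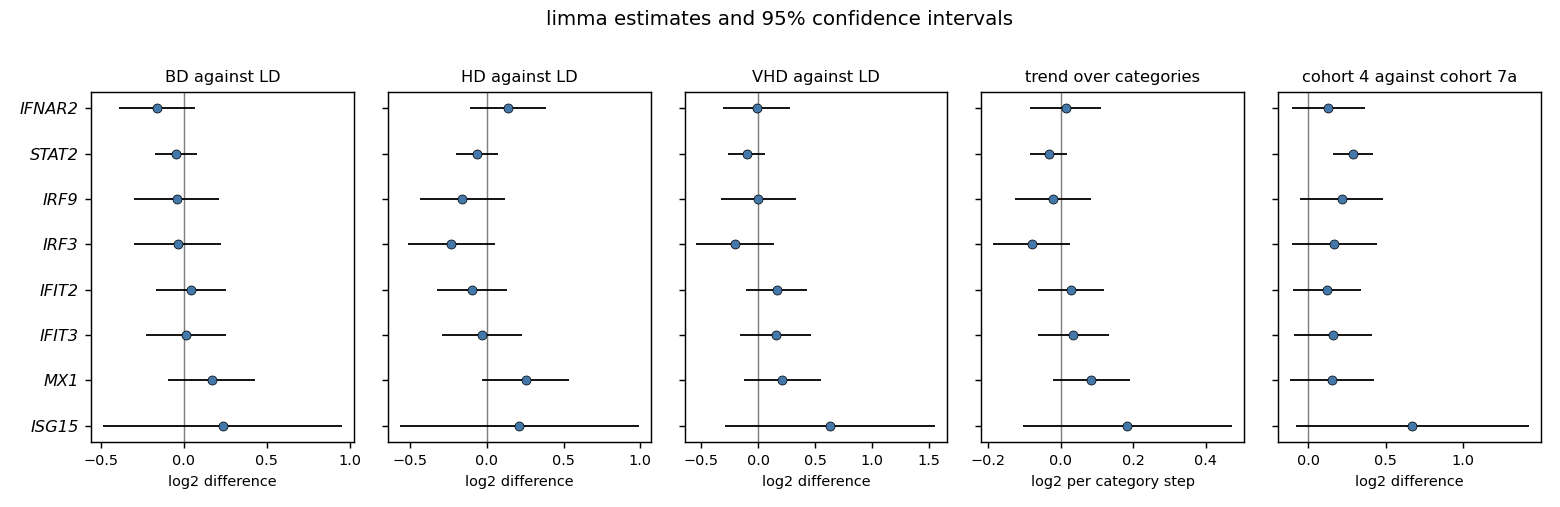
limma estimates with 95% confidence intervals for 8 interferon genes in 5 comparisons, as log2 difference from LD, log2 change per category step, or cohort 4 minus cohort 7a. All intervals span 0 except that of STAT2 between the cohorts, 0.16 to 0.42.

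Between cohorts, STAT2 had the smallest unadjusted p of the 8 members, and it did not pass after adjustment. Its level was 1184 ± 74.3 normalized reads in cohort 4 (SD, n = 9), 1085 ± 86.1 in cohort 5 (n = 8), 958 ± 92.5 in cohort 7a (n = 8) and 1070 ± 68.7 in cohort 7b (n = 5). The lowest, median and highest animals were at 1111, 1176 and 1370 normalized reads in cohort 4, at 952, 1085 and 1206 in cohort 5, and at 815, 955 and 1118 in cohort 7a. The 5 animals of cohort 7b were at 1000, 1014, 1056, 1113 and 1164. Cohorts 4 and 7a, the oldest and the youngest, barely met: 8 of 9 cohort 4 animals lay above all 8 cohort 7a animals, and 7 of those 8 lay below all of cohort 4. By sets of consecutive library numbers, STAT2 was lowest in the first, 998 ± 59.4 normalized reads (SD, n = 8). Its means were 1140, 1069 and 1108 in the others. That first set holds animals of cohorts 5, 7a and 7b only (n = 3, 3 and 2).

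The STAT2 difference between cohort 4 and cohort 7a was 0.29 ± 0.06 log2 units, a 1.22-fold higher level, with an unadjusted p = 8.556e-05 that ranked 6 of 12935 genes, and it did not pass the adjusted test (adjusted p = 0.147, limma with Benjamini-Hochberg adjustment). In this comparison 0% of genes passed after adjustment and 9.15% were under 0.05 before it, with STAT2 the 1 of 8 members among them. Over any cohort, 0% and 8.04% of genes were called, and STAT2 was again the only member under an unadjusted 0.05 (p = 0.0003907, rank 22, adjusted p = 0.222). With no term for drinking category the STAT2 difference was 0.31 and passed (adjusted p = 0.0352), and over the single libraries left out in turn it was 0.26 to 0.33 (adjusted p = 0.0738 to 0.258). Among LD animals alone, an alternative chosen after the data were seen, cohort 4 stood at 1169, 1178, 1184 and 1190 normalized reads and cohort 7a at 886.5, 981 and 1118. These 2 sets did not overlap and differed by 0.25 log2 units. The two-sided exact permutation p was 0.0571, the smallest that 4 animals against 3 allow. Any gene whose 2 sets do not overlap reaches it, and how many of the 12935 genes do so was not counted. These animals are part of the comparison above, so the split is not independent of it. For the other members the same test gave p = 0.343 to 0.914. Among LD animals limma had 581 of 12935 genes at an unadjusted p under 0.05 between these cohorts.

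The STAT2 difference had the same sign in most exons but not an even size. The mean of cohort 4 exceeded that of cohort 7a in 22 of 23 exons. The longest, exon 1 in genome order (1534 bases), held 221.5 normalized reads in cohort 4 and 185 in cohort 7a. Exon 15 held 48.7 and 34.2, and exon 17, the exception, 43.1 and 43.5. Near exon 17 the cohorts were also close, at 40.2 and 37.3 in exon 18 and 34.2 and 33.6 in exon 21. Exons of 1 gene share their libraries, sum to the reads of the gene and are not independent. Summed markers of microglia and macrophages had medians of 1774 and 1726 normalized reads in cohorts 4 and 7a, and those of endothelium 3032 and 3037. Vessel wall and fibroblast markers had medians of 4443 and 6163. Oligodendrocyte markers had medians of 6533 and 4898, with the highest library, at 19100, in cohort 4, and neuron markers 61600 and 65730. Their part in the STAT2 difference was not tested.

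**Figure D3:**
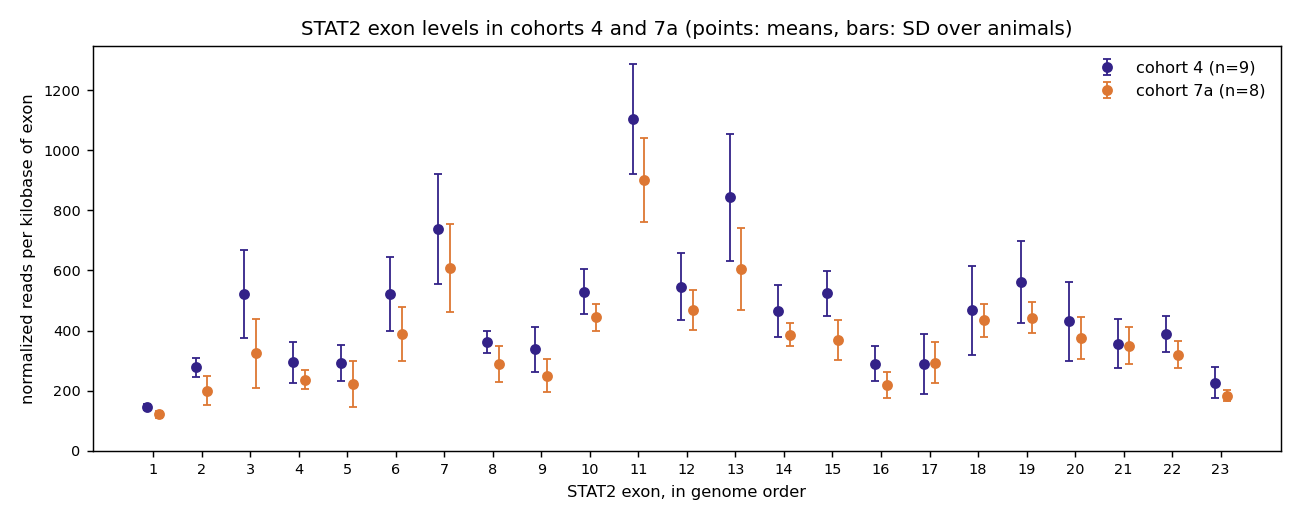
STAT2 reads per kilobase in each of its 23 exons in genome order, as mean and SD over the animals of cohort 4 (n = 9) and cohort 7a (n = 8). Cohort 4 lies higher in 22 of the 23 exons, and not in exon 17.

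The other members had the same sign between these cohorts but larger errors. All 8 members and 6703 of 12935 genes were higher in cohort 4 than in cohort 7a, with medians of 0.16 and 0.01 log2 units, and members that vary together between animals are not independent counts. IRF9 differed by 0.21 ± 0.13, IRF3 by 0.17 ± 0.13, IFIT3 by 0.16 ± 0.12, MX1 by 0.15 ± 0.13, IFNAR2 by 0.13 ± 0.12 and IFIT2 by 0.12 ± 0.11 log2 units. ISG15 differed by 0.67 ± 0.37, and by −0.39 among LD animals alone. The adjusted p of these 7 genes was 0.594 to 0.794. Among LD animals alone, IRF9 differed by 0.01, IFIT2 by 0.03, IRF3 by 0.05 and MX1 by 0.09 log2 units. IFIT3 differed there by 0.14 and IFNAR2 by 0.18.

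**Figure D4:**
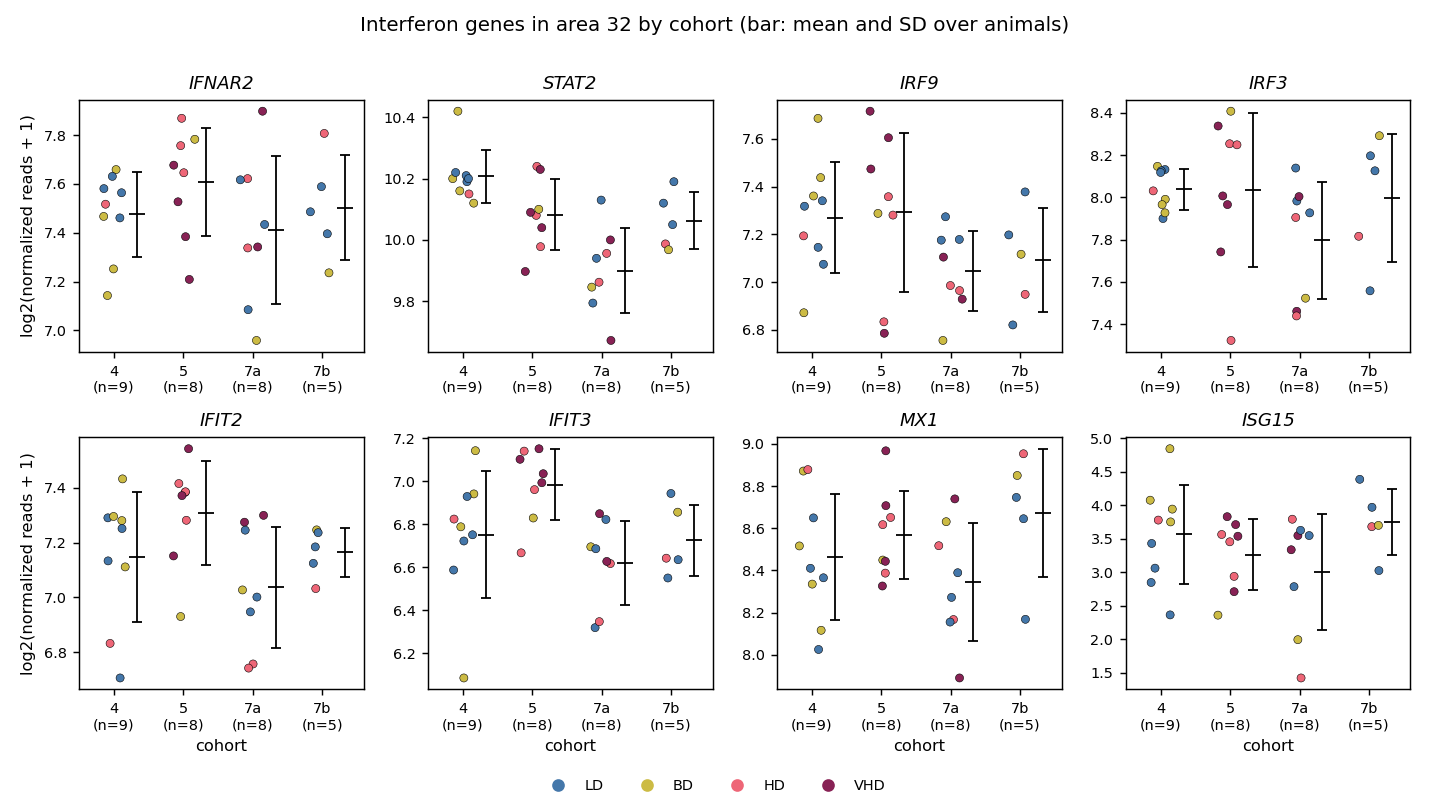
Level of the 8 interferon genes, as log2(normalized reads + 1), in each of 30 animals by cohort, with points coloured by drinking category and bars for mean and SD. STAT2 is highest in cohort 4 (10.21 ± 0.09) and lowest in cohort 7a (9.90 ± 0.14), with cohorts 5 and 7b between them.

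Of the 28 pairs among the 8 genes, 21 had a positive correlation over the 30 animals and 4 passed at an adjusted p under 0.05 (two-sided permutation tests, Benjamini-Hochberg adjustment over 28 pairs). With values centred within cohort 1 pair passed, IRF9 with IFIT3. Centred within sets of consecutive library numbers 2 passed, IRF9 with IFIT3 and IFIT2 with IFIT3. These shares were not counted over pairs of all genes. Many genes outside the list correlated as well. The 95th percentile of r over all tested genes was 0.44 for IRF9, 0.41 for STAT2, 0.39 for IFIT3, 0.35 for IFIT2 and 0.33 for ISG15. IRF9 and IFIT3 had the highest, r = 0.63 (adjusted p = 0.00532) and rho = 0.67 (adjusted p = 0.00308). That pair joins a subunit of the activating complex with one of its response genes. It kept r = 0.62 without the 2 animals farthest from the median of IRF9, and r = 0.58 with values centred within cohort (adjusted p = 0.0224, permuted within cohort). Within cohorts its r was 0.81 in cohort 4 (n = 9), 0.64 in cohort 5 (n = 8) and 0.10 in cohort 7a (n = 8), while cohort 7b holds too few animals for a value.

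STAT2 and IRF9, the partners within the complex, had r = 0.56 and rho = 0.59 (adjusted p = 0.0180 and 0.00840). Their r was 0.53 without the 2 farthest animals and 0.50 centred within cohort, where it no longer passed (adjusted p = 0.0608). Centred within sets of library numbers it was 0.46 and did not pass either (adjusted p = 0.0713, permuted within set). Within cohorts 4, 5 and 7a it was 0.32, 0.71 and 0.36. The paralogs IFIT2 and IFIT3 had r = 0.55 and rho = 0.59 (adjusted p = 0.0180 and 0.00840), with r = 0.47 without the 2 farthest animals (adjusted p = 0.0827). Centred within cohort, this pair fell to r = 0.40 (adjusted p = 0.304), with 0.37, 0.19 and 0.56 in cohorts 4, 5 and 7a. IFIT2 and ISG15 had r = 0.49 (adjusted p = 0.0468) but rho = 0.29 (adjusted p = 0.338), and r fell to 0.20 without the 6 libraries under 6 M reads. Their r without the 2 farthest animals was 0.52, centred within cohort 0.535 (adjusted p = 0.0608), and within cohorts 4, 5 and 7a 0.56, 0.77 and 0.42.

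**Figure D5:**
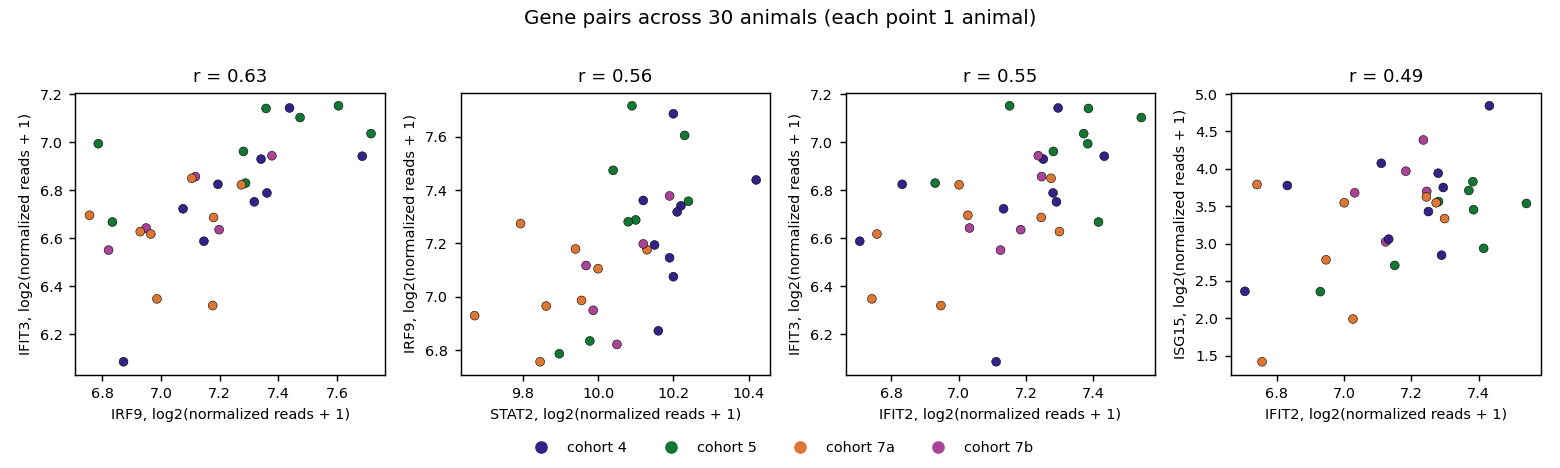
The 4 gene pairs that passed an adjusted p under 0.05, each point 1 of 30 animals in log2(normalized reads + 1), coloured by cohort, with Pearson's r above each panel. The r values are 0.63 for IRF9 and IFIT3, 0.56 for STAT2 and IRF9, 0.55 for IFIT2 and IFIT3, and 0.49 for IFIT2 and ISG15.

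The other response genes did not form 1 block. MX1 had r of 0.32 with IFIT3, 0.27 with STAT2, 0.19 with ISG15, 0.09 with IRF9 and 0.07 with IFIT2, and none of these passed. IFNAR2, the receptor gene, had 1 positive r of 7, 0.02 with IRF3, and its lowest was −0.21 with IRF9. IRF3 had its highest r with IRF9, 0.43 (adjusted p = 0.0983), which fell to 0.01 with values centred within sets of 8 consecutive library numbers.

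Across all 12935 genes, those whose levels over the 30 libraries were most like each member are given as a description. They share the libraries, their depth and the cohorts. IRF3 was most like PRDX2 (r = 0.845), TUFM (0.835) and MBD3 (0.831), and IRF9 most like TMBIM1 (0.825), NAGLU (0.724) and WBSCR16 (0.692). STAT2 was most like KIF13A (0.712), FXYD6 (0.704) and BOK (0.685), which fell to 0.457, 0.453 and 0.453 with values centred within cohort. IFIT3 was most like STOM (0.736), ABCB1 (0.687) and CLIC4 (0.679), of which ABCB1, the drug efflux pump of brain vessels, is one of the endothelial markers. IFIT2 was most like PSME2 (0.653), LYZ (0.648) and HSPE1 (0.646). MX1 was most like PPFIBP1 (0.695), DKK3 (0.625) and PRSS23 (0.619), ISG15 most like DCTPP1 (0.718), ZNF784 (0.685) and AKR1E2 (0.622), and IFNAR2 most like CCNJ (0.613), SLC20A1 (0.596) and FBXL2 (0.592). None of the 8 members was among the 3 nearest of another. IFIT3 was the 30th nearest gene of IRF9, and IRF9 the 10th of IFIT3. IRF9 was the 72nd of STAT2, and STAT2 the 131st of IRF9. IFIT3 was the 20th of IFIT2, and IFIT2 the 74th of IFIT3. ISG15 was the 71st of IFIT2, and IFIT2 the 57th of ISG15.

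Other genes of the pathway were read from a list of 104 genes, of which 96 have a row and 79 were tested. Of 7 ligand genes with a row only IFNK was tested, at 4.27 to 20.1 normalized reads; IFNB1, the ligand gene that IRF3 controls, had 41 reads over all 30 libraries, and IFNG had 0. None of the 79 genes passed an adjusted p under 0.05 in any comparison. At an unadjusted p under 0.05, 0 of 79 were called in VHD, beside 3.5% of all genes tested, and 1 in BD (lower, 1.27% beside 3.05%). HD had 8 (1 higher, 7 lower), which is 10.1% beside 12.5%. Any category had 2 (2.53% beside 5.62%), the trend 1 (1.27% beside 6.18%) and the slope by cohort 1 (1.27% beside 2.24%). Over any cohort there were 6 (7.59% beside 8.04%), and between cohorts 4 and 7a there were 5, all higher in cohort 4 (6.33% beside 9.15%). The median estimate of the 79 genes was −0.01 log2 units in VHD and −0.04 in HD, against −0.00 and 0.00 over all genes. By role, 3 of 6 receptor and kinase genes, 4 of 8 transcription factor genes, 8 of 16 sensor and adaptor genes, 20 of 44 response genes and 3 of 4 restraint genes had a positive estimate in VHD.

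IFI16, a nuclear DNA sensor, was the pathway gene with the smallest p over the trend among those with a positive slope, 0.10 ± 0.05 log2 units per step (unadjusted p = 0.0329, adjusted p = 0.745). Its lowest, median and highest levels were 89.9, 112 and 130 normalized reads in LD and 117, 131 and 159 in VHD, which overlapped. IFIT5, a further member of the IFIT family, had a slope of 0.08 ± 0.05. UBA7 and UBE2L6, the enzymes that activate and carry ISG15, both had slopes of −0.10 (SE 0.05 and 0.06). In VHD against LD, HERC5, the ligase that completes ISG15 transfer, was at 0.46 ± 0.28, IFI16 at 0.27 ± 0.14, IFI35 at −0.40 ± 0.24 and the DNA sensor gene AIM2 at −0.44 ± 0.31, each with an adjusted p of 0.948. Between cohorts, TAP1, the peptide transporter of antigen presentation, had the smallest p of the list (unadjusted p = 0.0001001, adjusted p = 0.210). TAP1 ran through a lowest, median and highest level of 130, 160 and 172 normalized reads in cohort 5 and 85.1, 104 and 130 in cohort 4, with cohort 7a at 98.2, 111 and 135. In cohort 7b these TAP1 levels were 72.3, 108 and 136. PSMB9, an immunoproteasome subunit, also had its highest median in cohort 5 (unadjusted p = 0.00332, adjusted p = 0.332). Its medians were 26.6 in cohort 5, 19.01 in cohort 4, 16.4 in cohort 7a and 14.8 in cohort 7b. IFI6 and B2M had unadjusted p of 0.00591 and 0.0153 over the cohorts. TAP1 and PSMB9 were thus highest in cohort 5, as IFIT3 was, and STAT2 in cohort 4.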

How the data were processed

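The deposited tables hold normalized signal per gene and per exon for 30 libraries, which the authors had scaled until each library had the same upper quartile (597.8 over its nonzero genes). CASAVA, FastQC, STAR 2.3.0e and edgeR are named in the submitters' processing notes. Not given in the sources used here are the genome build, annotation and read counter. Dividing each library by its smallest step (0.656 to 2.07) returned whole reads, within 0.01 for 100% of values, and depth is the sum of these reads. Exon reads sum to those of their gene.

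Tests covered genes that reached 10 normalized reads in 6 or more libraries. They used log2(value + 1), so fold changes of low genes are understated, with limma 3.58.1 (lmFit, eBayes with trend) in R 4.3.3, on category and cohort over all 30 libraries, with Benjamini-Hochberg adjustment over 12935 genes. Each library is from a separate animal. Pairs of members were tested with 100000 permutations in scipy 1.17.1; 28 pairs were possible of the 36 planned, since IFNAR1 has no row. Figures used matplotlib 3.10.9. A count test on the recovered reads, edgeR 4.0.16 with TMM factors, called 0 genes at an adjusted p under 0.05 in each comparison. The method was tested on simulated data with 200 changed genes. The members and lists were chosen with earlier results of these data known. Named beside the members are the 3 genes with the highest r to each and, of the pathway list, those past an adjusted p of 0.05. So are the 2 pathway genes with the smallest p in each direction over any cohort (direction from cohort 4 minus 7a), the trend and VHD. The ligand genes IFNK, IFNB1 and IFNG are named for their read levels, with these in view. Any other gene is marked as picked with its value in view. Alternatives were pseudocounts of 0.25 and 4, a minimum of 100 or no filter, array weights, median-of-ratios scaling, library numbers as a term (4 sets of 8 in sequence), edgeR, leaving out the 6 libraries under 6 M reads (M, mega) or each library, no term for the other factor, and 1 cohort only.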

Additional observations from a re-analysis of the deposited data

Results flagged for a closer look

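Of 64 groups of 5 to 10 animals (8 genes in 4 categories and 4 cohorts), 5 held a library far from the others, by the gap to the nearest animal over the range of the group; chance gives about 1 in 20 such groups. For IFNAR2, LD replicate 8 (cohort 7a) was the lowest of 10 LD animals at 134.8 normalized reads, with the next at 167. For STAT2, BD replicate 7 was the highest of 9 cohort 4 animals at 1370, with the next at 1190. For IRF3, LD replicate 1 (cohort 7b) was the lowest LD animal at 187.4, with the next at 238. For IFIT3, BD replicate 2 (cohort 4) was the lowest of 7 BD animals at 66.87, with the next at 103. For ISG15, HD replicate 4 (cohort 7a) was the lowest of 7 HD animals at 1.675, which is 1 read, with the next at 6.65.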

How the results depend on the processing

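No paired analysis was possible because each animal belongs to 1 category and the replicate numbers only name libraries. Over all alternatives, STAT2 between cohorts 4 and 7a was 0.25 to 0.33 log2 units, passing only with no category term (0.31, adjusted p = 0.0352; range 0.0352 to 0.998). Genes called there rose from 0 to 15 with a term for sets of library numbers and to 26 with no category term, and were 0 to 7 with single libraries left out (7 without BD replicate 1, 1 without LD replicate 9). Any cohort gave 1 with the set term, HD 1 with no cohort term. Pairs passing fell from 4 to 1 centred within cohort and 2 within library set (3 to 5 with single libraries left out). The cause was not tested. Small estimates changed sign. In VHD: IRF9 0.128 with the set term, 0.0052 by edgeR and 0.079 with no cohort term, IFNAR2 0.0027 with array weights, 0.022 with no cohort term and 0.24 in cohort 7a. In HD: IRF9 0.028, IRF3 0.014 and IFIT3 0.017 with the set term, IFIT3 0.048 and ISG15 −0.072 with no cohort term, ISG15 −0.71 in cohort 7a. In BD: IRF9 0.054 and IRF3 0.086 with the set term, IFIT3 −0.018 with array weights, IFIT2 −0.065 and ISG15 −0.33 without libraries under 6 M reads, STAT2 0.012, IRF9 0.026 and IRF3 0.016 with no cohort term, STAT2 0.019, IRF9 0.12 and IFIT3 −0.0082 in cohort 4. Over the trend: IFNAR2 −0.0068 and IRF9 0.036 with the set term, IRF9 0.0055 with no cohort term. ISG15 was −0.39 between cohorts in LD animals. With single libraries left out, the ranges were −0.056 to 0.087 for IRF9 and −0.20 to 0.088 for IFNAR2 in VHD, −0.078 to 0.015 for IFIT3 in HD, −0.0204 to 0.12 for IFIT2, −0.045 to 0.12 for IFIT3, −0.11 to 0.047 for IRF3 and −0.11 to 0.028 for IRF9 in BD, and −0.0298 to 0.0304 for IFNAR2 over the trend. Genes at an unadjusted p under 0.05 ranged from 321 to 1046 in VHD (453 in the analysis reported, 492 by edgeR, 813 without VHD replicate 4), 596 to 2168 in HD (1623, 1518), 229 to 1376 in BD (394, 345; 713 without LD replicate 3, 720 without BD replicate 7), 376 to 2256 over any category (727, 668; 1096 without BD replicate 1), 405 to 1853 over the trend (799, 814; 514, 500 and 517 without LD replicates 2 and 8 and BD replicate 6), 820 to 1465 over any cohort (1040, 1059), 581 to 1763 between cohorts 4 and 7a (1183, 1117) and 178 to 604 for the slope by cohort (290, 294). Depth limits ISG15 most, at 1 to 23 reads.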

Other observations

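The pathway genes below were chosen after their values were seen, and none passed an adjusted p under 0.05. In HD against LD, DHX58, which encodes a regulator of the RNA sensors, was at −0.35 ± 0.11 log2 units (limma, unadjusted p = 0.00334), UBA7 at −0.39 ± 0.13 (unadjusted p = 0.00580), TAP1 at −0.28 ± 0.12, OAS3 at −0.30 ± 0.13 and IRF7, the factor that amplifies interferon production, at −0.72 ± 0.30. IFI16 was at 0.28 ± 0.12. In HD 8 of 79 pathway genes (10.1%) were under an unadjusted 0.05, beside 12.5% of all genes tested. The first set of library numbers holds 4 HD animals and 1 LD animal. With the sets as a term, the genes at an unadjusted p under 0.05 in HD fell from 1623 to 596. The part of the library sets in these pathway values was not tested. Between cohorts 4 and 7a, IRF5 was at 0.37 ± 0.13, TRIM21 at 0.59 ± 0.23, GBP2 at 0.54 ± 0.20, TRIM25 at 0.28 ± 0.11 and OAS3 at 0.26 ± 0.12, all higher in cohort 4. They are the 5 of 79 pathway genes under an unadjusted 0.05 there, 6.33% beside 9.15% of all genes tested. Of the 79 genes, 45 had a positive estimate, with a median of 0.03 log2 units.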
